A study of Gallus gallus with 300 samples.

Results

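The genes described here are 9 components of the Notch pathway in single cells of the chicken utricle. They are the ligand genes DLL1, DLL4, JAG1 and JAG2, the receptor gene NOTCH1, the glycosyltransferase gene LFNG, and HES5, HEYL and HES6 of the HES and HEY transcription factor family. They were taken by symbol, and all 9 were found among 13631 gene symbols. All 9 also passed the filter for a measured gene, which asked for 10 CPM (counts scaled to a total of 1000000 in each cell) in at least 5 cells and which 10677 genes passed. Each was followed across hair cells with ATOH1, the other hair cells and supporting cells high in GJB6, and ligands and targets were then counted together cell by cell.

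The study sorted 300 single wild-type cells from the sensory epithelium of the utricle, a balance organ, of chickens at posthatch day 7, and sequenced each one by Smart-Seq2. Epithelia of several organs were pooled before dissociation, and no label ties a cell to an animal or to a sorting batch. The cells are therefore 1 sample, no test was made between cell groups, and the spread given is that over the 5 well plates named in the labels. A filter on genes and counts per cell removed 24 of the 300 cells, all 24 for having under 1000 genes, and clusters formed without any Notch gene placed 94 of the rest with supporting cells and all others with hair cells. Both classes are called hair cell-like or supporting cell-like, since they rest on marker genes. ATOH1-positive hair cells were the 50 hair cell-like cells with ATOH1, the proneural factor that starts hair cell differentiation, at 10 CPM or more. All remaining hair cell-like cells are called other hair cells, and percentages given for them are of that group. Supporting cells were the 89 supporting cell-like cells with GJB6, a connexin gene of supporting cells, at 1000 CPM or more. The 5 supporting cell-like cells below that level were kept apart.

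In Notch signalling, a Delta or Jagged ligand on one cell binds a Notch receptor on its neighbour, the receptor's intracellular part is released and enters the nucleus with RBPJ, and genes of the HES and HEY families are switched on. Fringe enzymes such as LFNG add sugars to the receptor and shift its response between Delta and Jagged ligands. In the inner ear, the pathway is known for lateral inhibition, in which new hair cells carry Delta-type ligands and HES and HEY factors hold back ATOH1 in the cells around them, and birds replace vestibular hair cells throughout life.

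The clusters were named from the hair cell and supporting cell marker lists, and supporting cells were chosen on GJB6. The marker values below therefore describe the groups and are no check of them. OTOF, a synaptic protein gene of hair cells, reached 10 CPM in all 50 ATOH1-positive cells, in 100% of other hair cells and in 9 of 89 supporting cells. The summed level of 15 supporting cell markers, GJB6 among them, had a median of 526.4 CPM in ATOH1-positive cells. It was 454 CPM in other hair cells and 35149 CPM in supporting cells. Median depth was 463282 counts and 3773 genes in ATOH1-positive cells, 415459 counts and 3313.5 genes in other hair cells, and 323509 counts and 1792 genes in supporting cells. Of the hair cell-like cells, 13 carried GJB6 at 1000 CPM or more, and levels and co-detection counts of hair cells that they move are given with and without them. Levels are means of the 5 plate means, in CPM, with the SD over plates. CPM are not divided by gene length, so levels are compared between cell groups and never between genes.

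DLL1 encodes a Delta ligand and was most frequent in ATOH1-positive hair cells. It reached 10 CPM in 25 of 50 of them (50%, exact 95% binomial interval 35.5 to 64.5%), in 15 other hair cells (11.4%, 6.50 to 18.05%) and in 4 of 89 supporting cells (4.49%, 1.24 to 11.1%). Its plate means in ATOH1-positive cells were 39.3, 239.2, 137.6, 47.7 and 78.8 CPM on plates 2 to 6, against 7.97, 23.8, 42.97, 23.9 and 11.6 CPM in other hair cells. On every plate the ATOH1-positive mean was the higher, although the plate ranges of both groups met, between 39.3 and 42.97 CPM. The levels were 108.5 ± 82.6 CPM in ATOH1-positive cells, 22.1 ± 13.7 CPM in other hair cells and 6.78 ± 12.2 CPM in supporting cells (SD over 5 plates). The other hair cells and the supporting cells overlapped, because the supporting cells of plate 2 averaged 28.5 CPM and those of the other plates 3.48 CPM or less.

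JAG2, a Jagged ligand gene, was detected in more hair cells than any other ligand gene. It was detected in 31 of 50 ATOH1-positive cells (62%, 47.2 to 75.3%), in 51 other hair cells (38.6%, 30.3 to 47.5%) and in 8 of 89 supporting cells (8.99%, 3.96 to 16.9%). Its level was 187.3 ± 151.2 CPM in ATOH1-positive cells, 123.6 ± 52.7 CPM in other hair cells and 17.8 ± 24.2 CPM in supporting cells. More ATOH1-positive cells had JAG2, but the level did not separate both hair cell groups: plates ran from 24.996 to 378 CPM in ATOH1-positive cells and from 51.3 to 180 CPM in other hair cells. The shares of supporting cells with DLL1 and JAG2 lie at or below the share with OTOF, 9 of 89, and are not read as expression. They do not show its absence either. OTOF reached 10 CPM in all hair cells, DLL1 in 22.0% and JAG2 in 45.1% of them, so the OTOF share is no measured floor for either gene. The highest supporting cells had 220 CPM of DLL1 and 860 CPM of JAG2. Where these reads came from was not tested. The highest single cell, at 2988 CPM, was an other hair cell and held 17.96% of that group's JAG2 counts.

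DLL4, a second Delta ligand gene, was found in hair cells alone, and in few of them. It reached 10 CPM in 5 of 50 ATOH1-positive cells (10%, 3.33 to 21.8%) and in 12 other hair cells (9.09%, 4.79 to 15.3%), and it had 0 counts in all 89 supporting cells. Detection in 0 of 89 cells, read as a limit of 3 cells, allows a share of cells with a count of up to 3.37%, and the exact 95% interval ends at 4.06%. Neither limits the share of cells that express the gene. Over all hair cells the pooled level was 17.1 CPM. This is 170.1-fold the 0.101 CPM that 3 counts over the whole supporting cell group would give. The 1352 hair cell counts lay in 21 cells and were amplified by PCR without molecule tags. The ratio is therefore no lower limit of the difference. Between the hair cell groups the order of levels was not stable, with 10.4 ± 12.9 CPM in ATOH1-positive cells, 17.95 ± 15.7 CPM in other hair cells and the ATOH1-positive mean higher on 2 of 5 plates. Without the hair cells high in GJB6 the levels were 6.09 ± 10.2 CPM in ATOH1-positive cells and 19.1 ± 16.97 CPM in other hair cells.

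JAG1, the other Jagged gene, had the opposite distribution to DLL1 and JAG2. It reached 10 CPM in 4 of 50 ATOH1-positive cells, in 11 other hair cells (8.33%) and in 77 of 89 supporting cells (86.5%, 77.6 to 92.8%). Its plate means in supporting cells were 664, 657, 1239, 1141 and 1135 CPM on plates 2 to 6, and no plate mean of either hair cell group was above 33.5 CPM. The groups did not overlap: the level was 7.73 ± 14.4 CPM in ATOH1-positive cells, 6.30 ± 8.95 CPM in other hair cells and 967 ± 282.95 CPM in supporting cells. GJB6, taken here as a gene that hair cells lack, reached 10 CPM in 15 of 50 ATOH1-positive cells (30%) and in 37 other hair cells (28.03%). For genes high in supporting cells, shares of hair cells below these are not read as expression. This applies to JAG1, NOTCH1, HES5 and HEYL in both hair cell groups and to LFNG in other hair cells. These shares do not show absence either, since GJB6 reached 10 CPM in all 89 supporting cells and these genes in fewer. GJB6 was also the gene that chose the supporting cells, and its level in them was 24517.5 ± 1750.5 CPM. Its share of hair cells is therefore no measured floor for the other genes. Among hair cells, 1 ATOH1-positive cell held 72.3% of that group's JAG1 counts. Without the hair cells high in GJB6, JAG1 was at 1.06 ± 1.13 CPM in ATOH1-positive cells and 4.84 ± 7.84 CPM in other hair cells.

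NOTCH1, the receptor gene, was likewise a supporting cell gene. It reached 10 CPM in 2 of 50 ATOH1-positive cells, in 0% of other hair cells and in 62 of 89 supporting cells (69.7%). The plate means were at most 3.12 CPM in ATOH1-positive cells and 0.359 CPM in other hair cells, against 56.4 to 151.8 CPM in supporting cells. Both ATOH1-positive cells with NOTCH1 also had HES5 and LFNG at 10 CPM or more, and both had GJB6 above 1000 CPM. Leaving out the hair cells at or above 1000 CPM of GJB6 removed 4 ATOH1-positive and 9 other hair cells, and 0 of the 46 remaining ATOH1-positive cells and 0% of the other hair cells then reached 10 CPM of NOTCH1.

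LFNG was highest in supporting cells, and its hair cell levels were nearer to the supporting cell level than those of JAG1, NOTCH1, HES5 and HEYL were. It was detected in 22 of 50 ATOH1-positive cells (44%, 30.0 to 58.7%), in 24 other hair cells (18.2%, 12.01 to 25.8%) and in 53 of 89 supporting cells (59.6%, 48.6 to 69.8%). The level was 51.004 ± 31.2 CPM in ATOH1-positive cells, 26.2 ± 14.7 CPM in other hair cells and 284.1 ± 88.004 CPM in supporting cells, with no overlap of plate means between hair and supporting cells. Relative to the supporting cell level, LFNG stood at 17.95% in ATOH1-positive cells and 9.23% in other hair cells. The same ratio was 2.08% and 0.877% for GJB6, which chose the supporting cells. For the supporting cell markers GJB2, SLC1A3 and OTOGL it was 0.968% and 0.657%, 1.80% and 0.689%, and 0.671% and 0.124%. For JAG1 it was 0.799% and 0.652%. It was 3.97% and 0.641% for HES5, 1.44% and 0.132% for NOTCH1, and 0.604% and 1.21% for HEYL. By this ratio HES5 in ATOH1-positive cells and HEYL in other hair cells also stood above GJB6. Neither did so by share of cells. Without the hair cells high in GJB6, LFNG remained in 19 of 46 ATOH1-positive cells and 21 other hair cells (17.1%).

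HES5, a repressor gene that is a classical Notch target, was a supporting cell gene with a smaller signal in hair cells. It was detected in 11 of 50 ATOH1-positive cells (22%, 11.5 to 35.96%), in 12 other hair cells (9.09%, 4.79 to 15.3%) and in 68 of 89 supporting cells (76.4%, 66.2 to 84.8%). Plate means of the supporting cells were 5953, 3229, 3029, 6699 and 3668 CPM on plates 2 to 6, and the highest plate mean in hair cells was 454 CPM. Supporting cells differed widely among themselves, with a median of 2783 CPM and a highest cell at 50596 CPM. The level was 179.1 ± 174.7 CPM in ATOH1-positive cells, 28.9 ± 16.5 CPM in other hair cells and 4516 ± 1690 CPM in supporting cells. In the RefSeq gene table of assembly GRCg7b, HES5 overlaps LOC419390 and PRDM16. LOC419390 reached 10 CPM in more cells of each group than HES5. It did so in 28 of 50 ATOH1-positive cells (56%), 25.8% of other hair cells and 79 of 89 supporting cells (88.8%). Its levels were 505 ± 473, 93.2 ± 98.5 and 6062 ± 1750 CPM in these groups. Whether the counting used strand is not given in the sources used here, so reads of overlapping genes may have been shared and HES5 counts are uncertain. DLL1, JAG1, JAG2 and HES6 also overlap other genes in that table, and the same limit holds for them.

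HEYL, a HEY-family repressor gene downstream of Notch, was found mainly in supporting cells. It reached 10 CPM in 1 of 50 ATOH1-positive cells, in 5 other hair cells (3.79%) and in 65 of 89 supporting cells (73.03%, 62.6 to 81.9%). The level was 3.19 ± 7.03 CPM in ATOH1-positive cells, 6.39 ± 11.96 CPM in other hair cells and 528 ± 150.7 CPM in supporting cells, and plate means of supporting cells began at 296.6 CPM. The lowest supporting cell plate was thus above the highest hair cell plate, 27.7 CPM. Without the hair cells high in GJB6, HEYL was at 0.129 ± 0.194 CPM in ATOH1-positive cells and 4.22 ± 7.76 CPM in other hair cells.

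HES6, a family member known in other vertebrates to oppose HES1 and to promote neuronal differentiation, was rare everywhere. It reached 10 CPM in 4 of 50 ATOH1-positive cells, in 3 other hair cells (2.27%) and in 4 of 89 supporting cells. The 4 ATOH1-positive cells had 116.1, 179.2, 193.7 and 1415 CPM, and the last of them held 81.2% of the group's counts. The 3 other hair cells had 28.6, 104.97 and 142.4 CPM, and the 4 supporting cells had 244.4, 602, 982 and 1962 CPM. Levels of 33.8 ± 48.9, 2.27 ± 3.27 and 43.6 ± 58.6 CPM in ATOH1-positive, other hair and supporting cells overlapped on the plates and give no order.

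**Figure D1:**
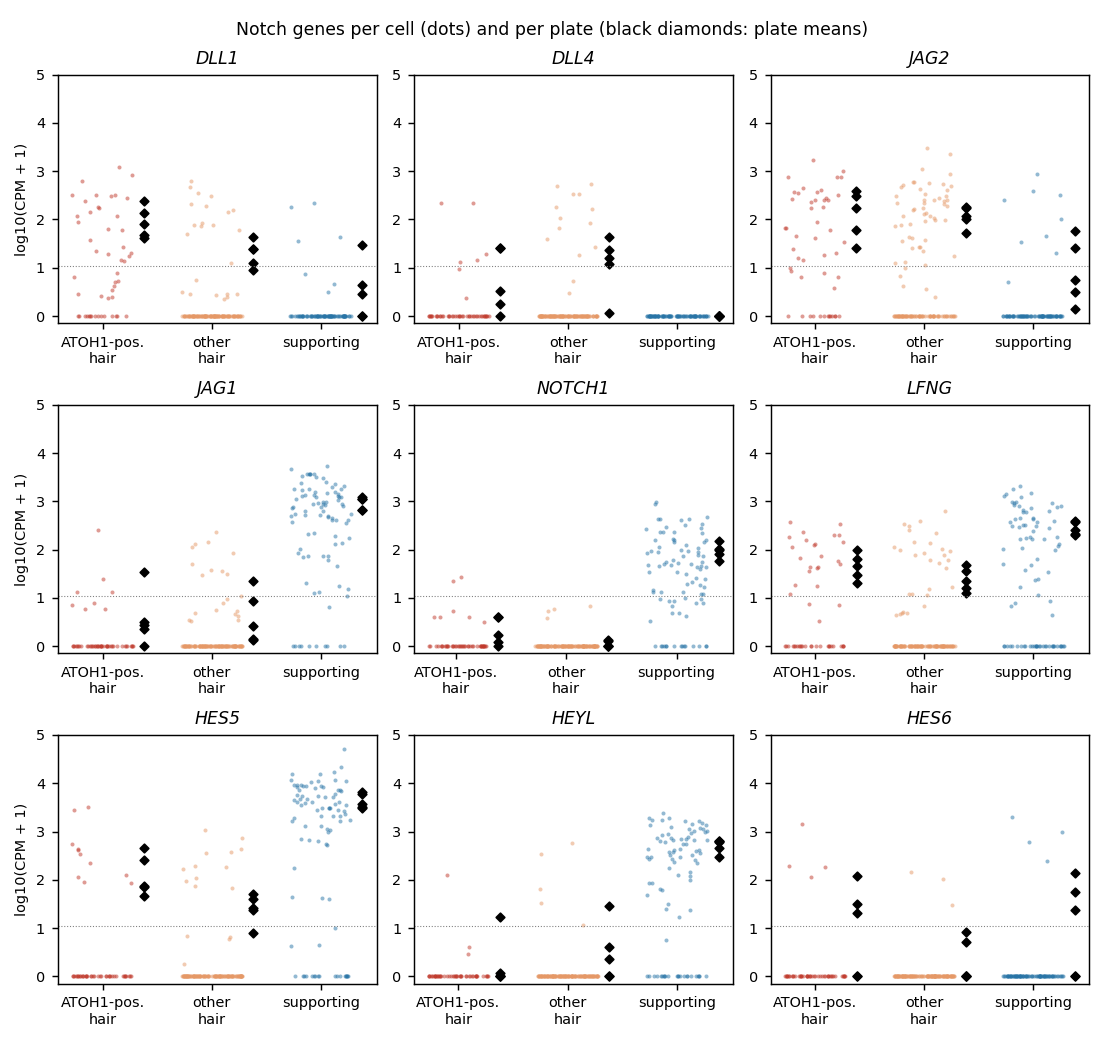
Each dot is a cell, as log10(CPM + 1), in ATOH1-positive hair cells (n = 50), other hair cells and supporting cells (n = 89), and black diamonds are the 5 plate means. The dotted line is 10 CPM. JAG1, NOTCH1, HES5 and HEYL are found mostly in the supporting cell column, and DLL1 and JAG2 mostly in the hair cell columns. Most other hair cells lie below the dotted line for DLL1 and for JAG2. DLL4 lies at 0 in all 89 supporting cells.

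**Figure D2:**
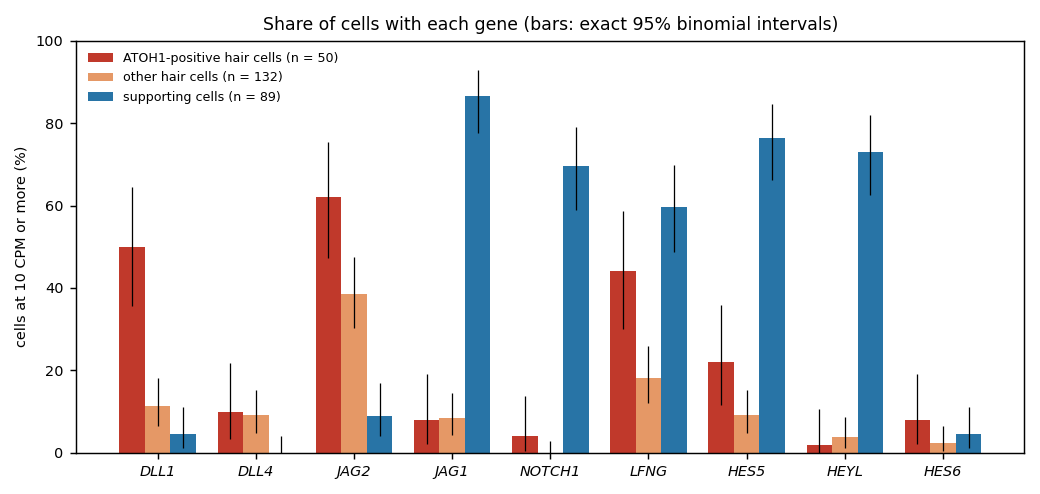
Bars give the share of cells, in percent, with each gene at 10 CPM or more in ATOH1-positive hair, other hair and supporting cells, and lines give exact 95% binomial intervals, which cover counting error only. DLL1 reached 50% of ATOH1-positive cells, and JAG1 reached 86.5% of supporting cells.

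Depth differed between the groups, so each cell was also thinned at random to 50000 counts and a gene was then taken as detected at 1 count. DLL1 was then found in 25 of 50 ATOH1-positive cells, 15 other hair cells and 5 of 89 supporting cells, and JAG2 in 32, 49 and 8. HES5 was found in 11, 12 and 68 cells, and NOTCH1 had 1, 1 and 54. At equal depth the thinned cells still held a median of 3173, 2807 and 1578 genes.

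To set the members beside the rest of the transcriptome, a gene was called by a rule of size, which is not a test. The rule asked for a level at least 2-fold different and in the same direction on all 5 plates. The members and the gene lists below were chosen with earlier results of these data known, so their counts are descriptions. Between all hair cells and supporting cells, 2 of the 9 members were called higher in hair cells, DLL4 and JAG2, beside 17.8% of 9677 genes that the clustering had not used. JAG2 had 144.4 ± 22.2 CPM in all hair cells and 17.8 ± 24.2 CPM in supporting cells, a log2 ratio of 2.95 with a pseudocount of 1 CPM. DLL1 had a log2 ratio of 2.63 and was not called, because it was higher in hair cells on 4 of 5 plates only; without plate 2 it was 4.56 and was called. Called lower in hair cells were 5 of the 9, beside 8.63% of all genes. Their log2 ratios were -7.01 for JAG1, -6.31 for HEYL, -6.10 for HES5, -6.08 for NOTCH1 and -3.06 for LFNG. HES6, with a log2 ratio of -1.76, was lower on 3 plates and higher on 1. ATOH1-positive cells against supporting cells gave 2 calls up, DLL1 and JAG2 at log2 ratios of 3.82 and 3.32, beside 10.8% of all genes, and the same 5 members down, beside 8.84%. These comparisons share cells, and neither repeats the other.

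**Figure D3:**
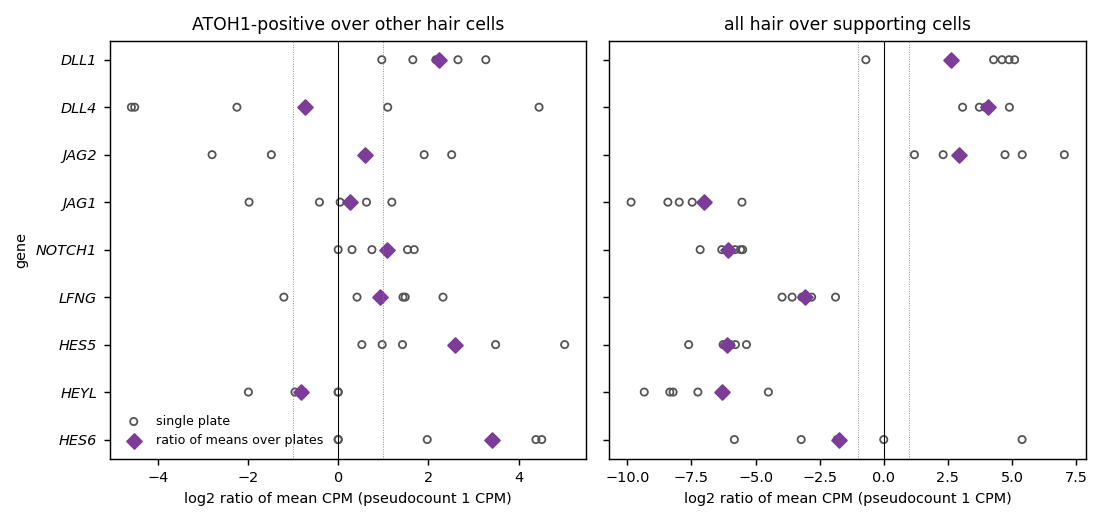
Open circles are log2 ratios of mean CPM (pseudocount 1 CPM) on each of 5 plates and diamonds are the ratios of the means over plates, for ATOH1-positive over other hair cells (left) and all hair over supporting cells (right). Dotted lines mark a 2-fold difference. JAG1, NOTCH1, LFNG, HES5 and HEYL lie below it on every plate on the right, and DLL1 on the left has a log2 ratio of 2.25.

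Within hair cells, ATOH1-positive against other hair cells gave 2 members called higher, DLL1 and HES5, beside 2.39% of all genes, and 0 called lower, beside 4.97%. The log2 ratio of DLL1 was 2.25, it lay between 1.76 and 2.50 when each plate was left out in turn, and it was called under each alternative run, some of which leave both hair cell groups as they were. The log2 ratio of HES5 was 2.59, but its call rested on few cells. JAG2, LFNG and NOTCH1 had log2 ratios of 0.60, 0.93 and 1.09 and were not called, nor were DLL4 at -0.73, JAG1 at 0.26, HEYL at -0.82 and HES6 at 3.41. LFNG was called when plate 4 was left out, at a log2 ratio of 1.41, and NOTCH1 when plate 6 was left out, at 1.24. LFNG was also called with ATOH1-positive cells defined at 50 CPM, at 2.38, where only plates 3, 5 and 6 held at least 5 such cells and were used. JAG2 was called on the mean log2(CPM + 1) scale, at 1.90.

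The HES5 counts of ATOH1-positive cells lay mostly in cells that also had GJB6. A pair of these cells had 3229 and 2777 CPM of HES5 together with 7169 and 10474 CPM of GJB6, and the remaining 9 HES5-positive cells had between 86.9 and 550 CPM. GJB6 reached 10 CPM in 7 of the 11 ATOH1-positive cells with HES5 and in 8 of the 39 without it. In other hair cells it did so in 6 of 12 with HES5 and in 31 of 120 without it. With hair cells at or above 1000 CPM of GJB6 left out, HES5 had 42.8 ± 33.99 CPM in 46 ATOH1-positive cells and 23.5 ± 19.4 CPM in other hair cells. The log2 ratio was then 0.84 and HES5 was no longer called, whereas DLL1 stayed at 2.25. With ATOH1-positive cells defined at 50 CPM, 23 of them were left, and only plates 3, 5 and 6 held at least 5. On those plates the HES5 ratio turned to -0.67, and the part of the plates left out was not tested. Whether the GJB6 and HES5 reads of these hair cells came from the cell itself or from supporting cells was not tested.

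Ligands were next counted together in the same cell. DLL1 and JAG2 were both present in 20 of 50 ATOH1-positive cells (40%, 26.4 to 54.8%) and in 11 other hair cells (8.33%, 4.23 to 14.4%). Among ATOH1-positive cells, JAG2 was found in 20 of 25 with DLL1 and in 11 of 25 without it, and among other hair cells in 11 of 15 with DLL1 and in 40 (34.2%) without it. The intervals of these shares were 59.3 to 93.2% and 24.4 to 65.1% in ATOH1-positive cells, and 44.9 to 92.2% and 25.7 to 43.5% in other hair cells. Without the hair cells high in GJB6, DLL1 and JAG2 were both present in 18 of 46 ATOH1-positive cells and in 11 other hair cells (8.94%). DLL4 was found in 1 of the 25 ATOH1-positive cells with DLL1 and in 4 of the 25 without it, but in 4 of the 15 other hair cells with DLL1 and in 8 (6.84%) without it. All 3 ligand genes were found together in 1 ATOH1-positive cell and in 4 other hair cells. HES6 was rare in hair cells. JAG2 was found in 4 of 4 ATOH1-positive cells with HES6 and in 3 of 3 such other hair cells. This stands beside 62% and 38.6% of all cells of these groups. The 4 ATOH1-positive cells with HES6 also had DLL1, which was in 50% of all ATOH1-positive cells. With so few cells, no association is read.

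Ligand and target genes were then counted in the same cell. A ligand among DLL1, DLL4 and JAG2 without HES5 or HEYL was found in 30 of 50 ATOH1-positive cells, in 51 other hair cells (38.6%) and in 2 of 89 supporting cells. HES5 or HEYL without such a ligand was found in 3, 8 and 68 cells of these groups. Both sides were found in 8 of 50 ATOH1-positive cells (16%, 7.17 to 29.1%), in 8 other hair cells (6.06%, 2.65 to 11.6%) and in 9 of 89 supporting cells (10.1%, 4.73 to 18.3%). Among cells with a target, a ligand was found in 8 of 11 ATOH1-positive cells, 8 of 16 other hair cells and 9 of 77 supporting cells, beside 76%, 44.7% and 12.4% of all cells of these groups. Without the hair cells high in GJB6, both sides were found in 6 of 46 ATOH1-positive cells and in 6 other hair cells (4.88%). In ATOH1-positive cells, HES5 was found in 6 of 25 cells with DLL1 and in 5 of 25 without it. None of the 9 genes reached 10 CPM in 5 ATOH1-positive cells, 57 other hair cells and 2 supporting cells.

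**Figure D4:**
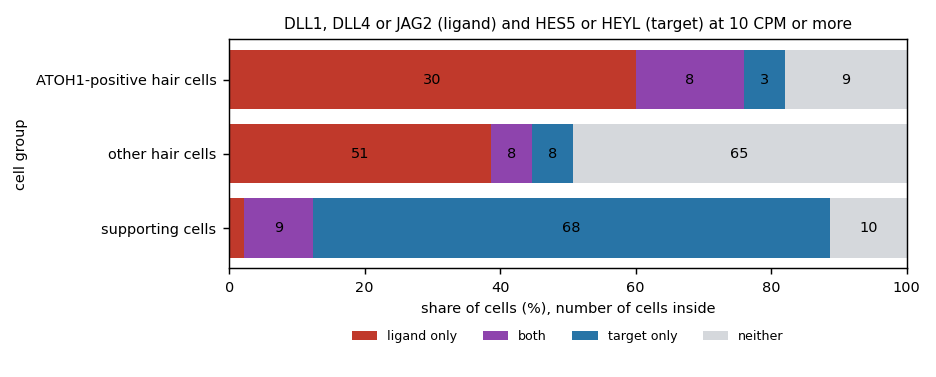
Bars show, for ATOH1-positive hair, other hair and supporting cells, the share of cells in percent with a ligand only (DLL1, DLL4 or JAG2), with both, with a target only (HES5 or HEYL) and with neither at 10 CPM or more, with the number of cells inside. The unlabelled segment is 2 supporting cells. A ligand alone was found in 30 of 50 ATOH1-positive cells and a target alone in 68 of 89 supporting cells. The segments with both rest on detections that the text does not read as expression.

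In supporting cells, ligand, receptor and targets were found together. JAG1 and HES5 were both present in 64 of 89 cells (71.9%, 61.4 to 80.9%), and HES5 was found in 64 of 77 cells with JAG1 and in 4 of 12 without it. HES5 and HEYL were both present in 56 of 89 (62.9%, 52.03 to 72.9%), with HEYL in 56 of 68 cells with HES5 and in 9 of 21 without it. For NOTCH1 the shares lay close together, with HES5 in 77.4% of the 62 cells with NOTCH1 and 74.1% of the 27 without it. JAG1, NOTCH1, HES5 and HEYL were all 4 present in 37 of 89 supporting cells, and 3 of the 4 in another 31. These counts share plates and depth, and a cell with more detected genes can hold more of each.

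The members also varied between clusters that had been formed without them. Among hair cell-like clusters, cluster 8 (38 cells, with HVCN1, NHLH1 and NMS among its leading genes) had ATOH1 in 55.3%, JAG2 in 81.6% and DLL1 in 47.4% of its cells. Cluster 6 (30 cells, with KCNAB1, KCNA10 and CPZ among its leading genes) had ATOH1 in 0%, DLL1 in 3.33%, LFNG in 0% and JAG2 in 23.3%. DLL4 was found in 5 cells of each, 16.7% of cluster 6 and 13.2% of cluster 8. Cluster 6 had a median of 3232 genes per cell and cluster 8 a median of 3899.5. Of the supporting cell-like clusters, cluster 1 (37 cells, led by ALDH1A3 and SPRY1) had HES5 in 86.5% and HEYL in 86.5% of cells, and cluster 2 (57 cells, led by COL8A2) had them in 66.7% and 61.4%. JAG1 was in 91.9% of cluster 1 and 77.2% of cluster 2, in the same direction. Mean JAG1 ran the other way, at 599 CPM in cluster 1 and 1251 CPM in cluster 2, and mean HES5 was 6041 and 3370 CPM. Cluster 1 had a median of 2571 genes per cell and cluster 2 a median of 1417, and the part of depth in these shares was not tested. Both clusters also hold some of the supporting cell-like cells low in GJB6.

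**Figure D5:**
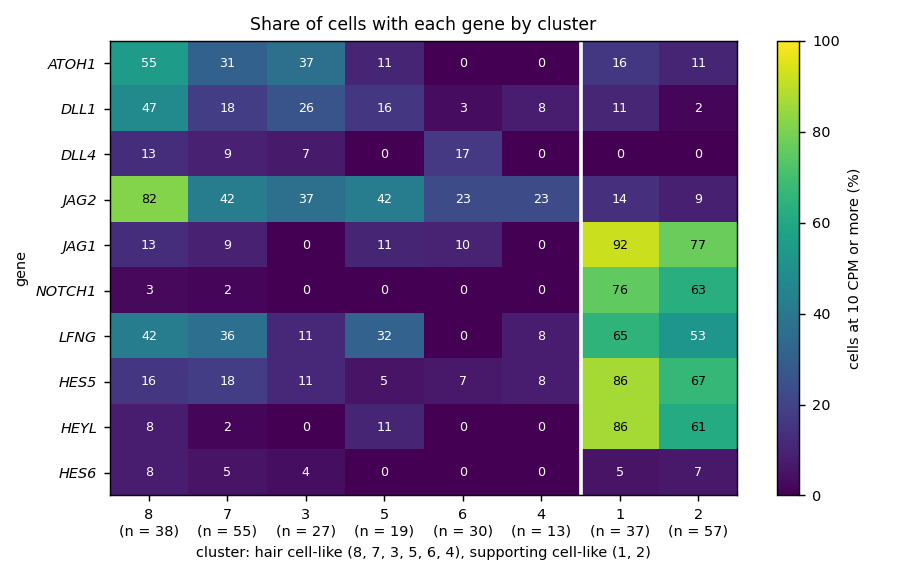
Colours and numbers give the percent of cells with each gene at 10 CPM or more in 6 hair cell-like clusters (left of the white line) and 2 supporting cell-like clusters (right of it), with the cells per cluster under each column. JAG2 and DLL1 peak in cluster 8, at 81.6% and 47.4%, and cluster 6 has no LFNG.

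ATOH1 itself was found in 11 of 89 supporting cells, and these cells kept the supporting cell pattern. Of the 11, 9 had HES5, 10 had JAG1 and 10 had HEYL at 10 CPM or more, and 0 had OTOF. DLL1 was found in 2 of the 11, against 2 of the 78 supporting cells without ATOH1. These counts are too small to compare, and DLL1 in supporting cells is likewise not read as expression. The 5 supporting cell-like cells low in GJB6 were mixed. One of them, with 9 hair cell markers and 4177 CPM of OTOF, had 740 CPM of JAG2, 517 CPM of HES6 and 104.8 CPM of ATOH1 and no HES5. A second, with 6 supporting cell markers, had 261.01 CPM of DLL1, 492 CPM of HES6, 434 CPM of HEYL and 147.4 CPM of HES5, and another had 12436 CPM of HES5 and 1375 CPM of JAG1. The other 2 cells had none of the 9 genes at 10 CPM and carried markers of other cell types. One had summed immune markers of 18668 CPM and melanocyte markers of 3951 CPM, and the other summed glial markers of 28601 CPM.

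Of 60 other pathway genes listed, 53 were in the files and 50 were measured. Between all hair cells and supporting cells 7 of the 50 were called higher in hair cells, beside 17.8% of all genes, and 13 lower, beside 8.63%, with a median log2 ratio of -0.76 beside 0.07 over all genes. Higher were NEURL1 and NEURL1B, ubiquitin ligases that act on Delta ligands, at 162.4 ± 39.4 and 17.1 ± 9.34 CPM in hair cells, against 2.87 ± 6.07 CPM and 0 counts in supporting cells. For NEURL1B the pooled hair cell level was 189.8-fold that of 3 counts over all supporting cells. The co-repressor gene TLE3, also at 0 counts in supporting cells, had a pooled hair cell level 75.8-fold that of 3 counts. As for DLL4, these ratios are no lower limits. NUMBL, related to the Notch inhibitor NUMB, had a log2 ratio of 2.64 and DNER, a Notch-binding membrane protein gene, one of 2.09. Lower in hair cells were HEY1 at 2.84 ± 3.26 CPM, against 167.4 ± 67.3 CPM in supporting cells, and HES1 at 0.812 ± 0.771 CPM, against 38.2 ± 33.95 CPM. The receptor gene NOTCH2 had 6.23 ± 8.25 CPM in hair cells and 85.2 ± 45.2 CPM in supporting cells. SOX9, ID1 and ID2, transcription regulators of progenitor and supporting cells, had log2 ratios of -5.13, -3.62 and -2.99.

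Within hair cells the calls in that list were near the shares of all genes, 2.39% higher and 4.97% lower. ATOH1-positive against other hair cells gave 1 of 50 called up, PSEN2 of the gamma-secretase complex at a log2 ratio of 1.54, and 2 down, NUMBL at -1.22 and the DTX2 ubiquitin ligase gene at -1.84, with a median of 0.01 beside -0.04 over all genes. In a list of developing hair cell genes, 6 of 21 measured genes were called higher, beside 2.39% of all genes. In the same list 1 was called lower, beside 4.97%, and the median was 1.14. The list was chosen with earlier results of these data known, so these counts describe it and are no evidence of enrichment. TAGLN3 had 89.01 ± 46.8 CPM in ATOH1-positive cells and 1.44 ± 3.23 CPM in other hair cells, and the neurogenic factor gene NHLH1 had 197.2 ± 100.7 CPM and 8.15 ± 5.93 CPM. STMN1, a microtubule regulator gene, had 695 ± 265.98 CPM in ATOH1-positive cells and 100.5 ± 51.01 CPM in other hair cells. TUBB3, LHX3 and GADD45G were the other 3 called higher, at log2 ratios of 1.26, 1.22 and 1.13, and ISL1 was called lower at -1.15.

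The genes whose pattern over cells was most like each member were ranked by Pearson correlation of log2(CPM + 1) after subtracting plate means. Over all hair cells kept, DLL1 was most like LOC107051857 (r = 0.51), ATOH1 (0.48) and PQLC2L (0.48), and JAG2 was most like C9H3orf58 (0.42), KCNH7 (0.39) and ANKRD60 (0.39). The correlation of DLL1 with JAG2 was 0.30 and that of DLL1 with the number of genes per cell 0.18. Over 94 supporting cell-like cells, HES5 was most like LOC419390 (0.64), which overlaps it, and then DBI (0.47) and IGFBP7 (0.47). The 94 cells include the 5 low in GJB6, and the part of those cells in these correlations was not tested. HEYL had HES5 as its second gene (0.44), after MIF (0.46). JAG1 was most like SLC1A3 (0.63), a glutamate transporter gene of supporting cells, SYNE2 (0.59) and APLP2 (0.57), and its correlation with HES5 was 0.42. NOTCH1 was most like APP (0.44), SORL1 (0.42) and IKZF2 (0.40), and LFNG was most like IGFBP7 (0.47), PHLDA1 (0.42) and ZNF536 (0.41). DLL4 and HES6 were in too few cells for this. These values are descriptions over cells that share plates and depth.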

How the data were processed

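Every cell had 1 deposited file of expected counts by gene, which are the authors' estimates and can hold fractions. STAR, RSEM and FastQC appear in the submitters' processing notes; no version, genome build, annotation or strand setting is given in the sources used here. The Smart-Seq2 libraries were amplified by PCR and carry no molecule tags, per the labels' protocols, so intervals and zero limits cover counting error only.

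Of 13643 gene rows, 12 symbols on 2 rows were summed. Cells with at least 1000 genes and 50000 counts were kept (276; depth of all cells 62846 to 1234012 counts, median 395671). CPM were computed here from each cell's total. The groups held 50 ATOH1-positive hair, 132 other hair and 89 supporting cells. Each well was sorted to hold 1 cell, and doublets were neither called nor tested for. A hair cell-like cell with 10474 CPM of GJB6 had 12 hair cell and 10 supporting cell markers. Ward clustering used 8 clusters, 20 principal components and the 1000 most variable of a hash-chosen set of genes, without the 140 members, listed genes and markers found in the files. Clusters were named from marker lists: at least 3 markers at 10 CPM in at least 50% of cells. Other cell types' lists (stromal, endothelial, immune, glial, neuron, melanocyte, dark cell) named no cluster. Expected counts were rounded only for thinning. The members, lists and thresholds were chosen with earlier results of these data known. Genes named beyond the members were called genes of a list, at most 6 per direction, and the 3 of highest correlation with a member. The averaging was tested on simulated data. Alternatives changed plates, cell filter, clusters, GJB6 and ATOH1 thresholds, scaling, averaging, pseudocount and detection. Python 3.11.15, numpy 2.4.6, pandas 2.3.3 and scipy 1.17.1 were used.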

Additional observations from a re-analysis of the deposited data

Results flagged for a closer look

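In 5 of 26 gene and group combinations, 1 of the 5 plate means stood far above the other 4. Plate means of genes found in few cells can stand out in this way through 1 cell, so no chance rate is given. DLL1 in supporting cells averaged 28.5 CPM on plate 2. JAG1 in ATOH1-positive hair cells averaged 33.5 CPM on plate 5. HEYL on plate 5 averaged 15.8 CPM in ATOH1-positive hair cells and 27.7 CPM in other hair cells. HES6 in ATOH1-positive hair cells averaged 117.9 CPM on plate 6, where 1 cell had 1415 CPM. The cell with 7169 CPM of GJB6 on plate 5 held the highest JAG1 and HEYL of the ATOH1-positive cells, at 249.02 and 123.1 CPM.

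The 24 cells removed by the filter, all for having under 1000 genes, also carried Notch genes, above the 12.5% that a limit of 3 in 24 cells gives and above the exact upper end of 14.2% for 0 of 24. JAG1 reached 10 CPM in 50% of the removed cells, NOTCH1 in 45.8%, HES5 in 41.7%, HEYL in 37.5% and LFNG in 16.7%, and GJB6 did so in 75%. ATOH1 reached 10 CPM in 1 of the 24.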

How the results depend on the processing

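No analysis paired by animal was possible, because the labels put all cells in 1 group and tie none to an animal. No result came from a test. The direction of a difference was compared within each plate, and the log2 ratios are those of means over plates. Of 750 values under 24 alternatives, 707 stayed within the plate spread, the binomial interval or 1.5 times the count, and 42 moved. Part of the 707 was fixed in advance, since the GJB6 threshold of supporting cells, for example, leaves both hair cell groups as they were. Plate spread was also wide for some ratios, with an SD of 4.21 for HES6 between hair and supporting cells. The 1 called value that turned its sign was HES5 in ATOH1-positive over other hair cells. Its log2 ratio was -0.67 with ATOH1 at 50 CPM. A comparison needed at least 5 cells of each group on a plate, and this alternative met that on plates 3, 5 and 6 only. Of the uncalled ratios of ATOH1-positive over other hair cells, JAG1 ranged from -2.18 to 0.86 and HEYL from -3.24 to 1.13. JAG2 ranged from -0.07 to 1.90 and DLL4 from -3.35 to 0.10, so the direction of these 4 is not settled. All 5 members lower in hair than in supporting cells were called under each of 20 alternatives. The members called higher in ATOH1-positive hair cells fell to 1, DLL1, without the hair cells high in GJB6, and to 1, again DLL1, with ATOH1 at 1 count. With ATOH1 at 50 CPM, 2 members were called higher, DLL1 and LFNG, and 2 lower, DLL4 and JAG1. Those calls asked for the same direction on plates 3, 5 and 6 only, not on all 5 plates. In that setting DLL1 with JAG2 was found in 56.5% of the 23 ATOH1-positive cells. With detection at 50 CPM that share was 14%. In the 38 supporting cells of the stricter filter (2000 genes and 100000 counts), JAG1 with HES5 was found in 81.6% and HES5 with HEYL in 76.3%. The developing genes called lower in ATOH1-positive cells were 1 to 2 over the plates left out and 0 on the mean log2(CPM + 1) scale. On that scale DLL4 fell to 0.65 between hair and supporting cells and was not called, while DLL1 was. The share of all genes called higher in ATOH1-positive cells ranged from 1.77 to 6.10%, and that called lower from 1.04 to 21.3%. For the moves, the cause was not tested. With cells thinned to 50000 counts, DLL4 was found in 3 of 50 ATOH1-positive cells and NOTCH1 in 54 of 89 supporting cells.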
